A study of Homo sapiens with 3 samples.

Results

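Strawberry Notch 1 (SBNO1) had a peak at 4143 genomic regions of HuCCT1 cells that lay away from start sites of protein-coding and long non-coding transcripts and held no peak of the TFIID subunit TAF4. They were selected on the measured peak lists. An SBNO1 peak was kept when it shared no base with any TAF4 peak or any peak of the control immunoglobulin (IgG), when its nearer edge lay over 10 kb from every transcription start site (TSS) of protein-coding transcripts, and when it lay over 1 kb from every TSS of a long non-coding RNA (lncRNA) gene. Of 16147 SBNO1 peaks, 6511 had no TAF4 overlap, 6446 had no IgG overlap in addition, 4382 of these were beyond 10 kb and 4143 passed the lncRNA limit. The regions made up 25.7% of the SBNO1 list (95% Clopper-Pearson interval 24.99% to 26.3%) and 51.3% of the 8081 SBNO1 peaks at this distance from any such TSS. They are called SBNO1-only distal peaks here, although a TAF4 peak that was not called does not show that TAF4 was absent. The nearest comparison was with 2992 distal SBNO1 peaks that overlapped a TAF4 peak and no IgG peak. Allowing IgG overlap raised the regions without TAF4 only to 4196. Most distal SBNO1 peaks left out for overlapping IgG therefore also overlapped TAF4, and the comparison class omits them. All later counts of distal SBNO1 peaks with TAF4, at genes and in clusters, refer to this class without IgG overlap.

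The study had mapped both proteins by chromatin immunoprecipitation sequencing in HuCCT1, an established human cholangiocarcinoma (bile duct cancer) cell line, with no treatment or genetic change given in the labels. The groups were 1 library with an SBNO1 antibody, 1 with a TAF4 antibody and 1 with IgG, and each library was made from several immunoprecipitates that had been pooled. Hence there were no replicates, and all intervals below cover the counting of peaks only. Among bile duct markers of the labelled cell type, KRT19, EPCAM and SOX9 had peaks of SBNO1 and TAF4 within 1 kb of a TSS, KRT7 had a TAF4 peak but no SBNO1 peak, and CFTR and SPP1 had neither. For SBNO1 this compared with 0 of 6 hepatocyte, 0 of 4 blood and 0 of 4 endothelial markers, whereas 1 of 4 fibroblast markers (COL1A1) carried a peak.

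SBNO1 is the human homologue of a Drosophila helicase-like protein first known from Notch signalling. TAF4 belongs to TFIID, the general transcription factor that recognises core promoters and helps to assemble the RNA polymerase II machinery. Regulatory DNA far from promoters is often bound by sequence-specific factors, among them the FOS and JUN dimers of activator protein 1 (AP-1), the TEAD partners of YAP, RUNX and FOXA proteins, while promoters frequently carry GC-rich elements for KLF and SP proteins.

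The central 200 bp of high-ranking regions are shown first, because the sequence set these regions apart from their surroundings. Regions were ranked by score, then by width. The following are 4 of the 10 highest-ranked regions, read from GRCh38 on the plus strand, with the AP-1 consensus TGACTCA or its reverse complement in capitals. The region of rank 2 was printed as an example without a match.
rank 1, near CSF2, chr5:132100824-132101023: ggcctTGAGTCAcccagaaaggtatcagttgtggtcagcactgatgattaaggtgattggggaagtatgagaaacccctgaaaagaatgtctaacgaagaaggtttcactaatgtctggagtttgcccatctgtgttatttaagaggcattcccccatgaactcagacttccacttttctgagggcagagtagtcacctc
rank 3, in MYH9, chr22:36331619-36331818: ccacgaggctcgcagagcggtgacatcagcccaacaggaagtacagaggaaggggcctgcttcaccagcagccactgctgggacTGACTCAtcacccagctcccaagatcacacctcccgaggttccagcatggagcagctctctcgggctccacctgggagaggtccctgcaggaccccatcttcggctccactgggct
rank 10, near EED, chr11:86183147-86183346: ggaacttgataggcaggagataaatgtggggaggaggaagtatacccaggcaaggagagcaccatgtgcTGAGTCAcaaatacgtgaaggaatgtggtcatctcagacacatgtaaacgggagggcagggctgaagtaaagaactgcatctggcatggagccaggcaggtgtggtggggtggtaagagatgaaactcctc
rank 2, near MTPAP, chr10:30387561-30387760: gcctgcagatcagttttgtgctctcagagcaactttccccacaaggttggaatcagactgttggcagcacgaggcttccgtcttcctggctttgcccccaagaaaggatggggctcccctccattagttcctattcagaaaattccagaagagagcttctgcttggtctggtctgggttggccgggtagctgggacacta

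To show the match in its local context, 21 bases around the AP-1 consensus follow for 12 further regions of high rank that held it, again from GRCh38, named by the gene with the nearest protein-coding TSS and written on the strand that reads TGACTCA. Capitals mark the consensus. All of these regions had the highest possible score of 1000 and widths of 450 to 522 bp, and the match lay within 93 bp of the peak centre.
ZNF608, chr5:124597104-124597124, plus strand: ctaaccaTGACTCAacatatt
NRP1, chr10:33366101-33366121, plus strand: ctactagTGACTCAgctggtc
EDIL3, chr5:84437869-84437889, plus strand: aataaggTGACTCAtatgaat
FRMD6, chr14:51539764-51539784, minus strand: ctgcaaaTGACTCAgatggct
KCNK10, chr14:88166832-88166852, minus strand: atggtaaTGACTCAtacctga
TGFBR3, chr1:91804711-91804731, plus strand: ccccatcTGACTCAtctgctc
MBNL2, chr13:97256490-97256510, minus strand: gtacgaaTGACTCAtcagcag
LPP, chr3:188295030-188295050, plus strand: ccttctcTGACTCActtattg
XCL1, chr1:168628895-168628915, minus strand: taaacccTGACTCAtagcagc
SFXN1, chr5:175518011-175518031, plus strand: ttcagcaTGACTCAtccatcc
SMYD2, chr1:214404989-214405009, plus strand: ttcaatgTGACTCAgcttccc
GTF2A1, chr14:81303479-81303499, minus strand: ggcgcaaTGACTCAgccactg

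The AP-1 consensus was found in the central 200 bp of 1723 SBNO1-only distal peaks, or 41.6% (interval 40.1% to 43.1%). In windows of the same length shifted by 1000 bp to either side, it was present in 3.63%, which was 11.4 times less frequent. It was present in 2.44% of windows around all protein-coding TSS. The same letters in reversed order, ACTCAGT, which served as a control for base composition, were found in 5.77% of the regions and in 3.02% of their flanks. A single match was present in 1472 regions, 2 matches in 226 and 3 in 23.

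Distal SBNO1 peaks with TAF4 also held AP-1 in 39.4% (37.7% to 41.2%), so that the difference was 2.15 percentage points with an interval from -0.161 to 4.45 that included 0. The interval no longer included 0 when regions within 1 kb of a TAF4 or IgG peak were left out (2.46 points, 0.129 to 4.78) or without the 3 chromosomes of highest density (2.66 points, 0.0746 to 5.24). The difference also depended on the sequence examined, as it was 2.94 points (0.927 to 4.93) in the central 100 bp, -0.593 points (-2.94 to 1.76) in 400 bp and -3.66 points (-5.99 to -1.31) over the whole peak. The 637 distal TAF4 peaks without SBNO1 or IgG held the consensus in 31.9% (28.3% to 35.6%). In the IgG library, which measured the background of the procedure, 12.1% (10.2% to 14.1%) of 1152 distal peaks held it. These distal IgG peaks were kept whether or not they overlapped an SBNO1 or TAF4 peak, unlike the other distal classes. SBNO1 peaks without TAF4 within 1 kb of a protein-coding TSS had a match in 13.8% (11.5% to 16.4%).

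**Figure D1:**
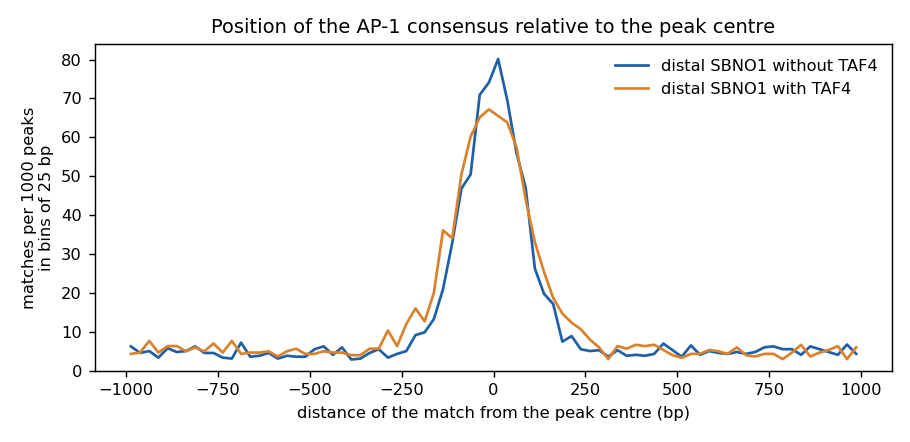
Matches of the AP-1 consensus per 1000 peaks (vertical axis, bins of 25 bp) against the distance from the peak centre in bp (horizontal axis) for distal SBNO1 peaks without TAF4 (blue) and with TAF4 (orange). Both lines are highest at the centre, with 80.1 matches per 1000 peaks without TAF4 in the first 25 bp after it, and both are low beyond 500 bp.

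The matches gathered at the peak centre. Within 25 bp of the centre there were 3.07 matches per 1000 regions and bp, compared with 0.193 from 500 bp to 1 kb, a ratio of 15.9. For distal SBNO1 peaks with TAF4 the ratio was 13.3. Of the matches within 100 bp, the median distance from the centre was 41 bp without TAF4 and 45 bp with TAF4. The consensus coincided exactly with the centre in 8 regions, of which the highest-ranked was a peak 53.7 kb from the TSS of FGD2 (chr6:37059373-37059572).

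The bases next to the consensus were also counted over 1994 matches in the regions and 311 in their flanks. ATGACTCAG was the most frequent arrangement in the regions with 10.8% of matches, compared with 7.40% in the flanks. ATGAGTCAG, the arrangement with the largest gain, took 10.3% in the regions and 4.50% in the flanks. The opposite order was seen for TTGACTCAA with 0.953% and 5.47%, respectively, although the latter rested on 17 flanking matches.

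Regions without the exact consensus frequently contained closely related letters. Of these 2420 regions, 1608 (66.4%, 64.5% to 68.3%) held a sequence with 1 mismatch to TGACTCA, compared with 50.2% of their flanks. When all words of 7 bases were compared with the flanks, TGACTAA led the list with 14.8% against 2.23%. TGAATCA was present in 16.9% against 3.31%. Both words differ from the consensus at 1 position. Exact matching to TGACTCA therefore counted a subset of AP-1-like words.

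**Figure D2:**
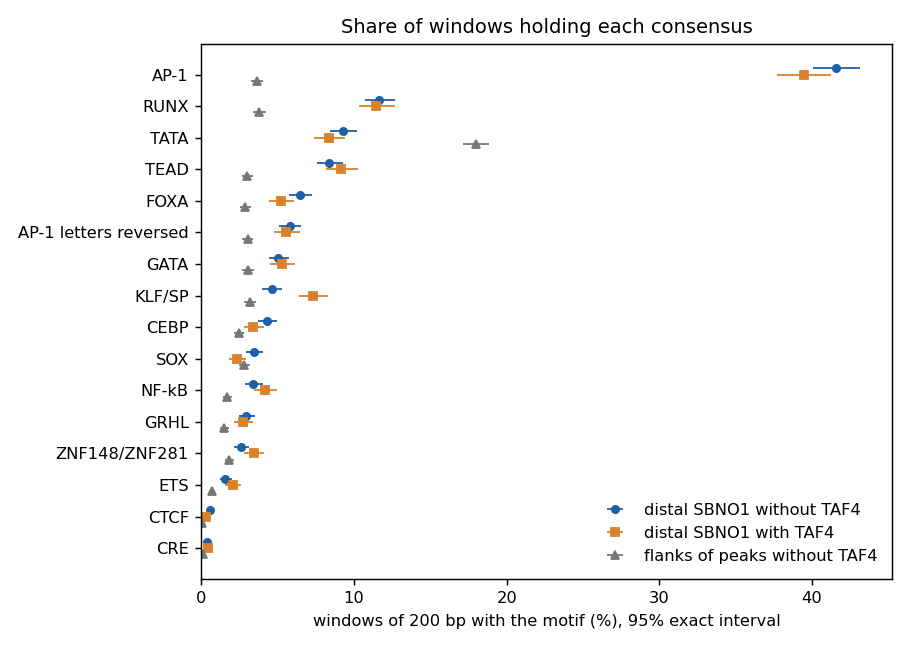
Share of central 200 bp windows with each consensus in percent (horizontal axis) for distal SBNO1 peaks without TAF4 (blue circles), with TAF4 (orange squares) and for the flanks of peaks without TAF4 (grey triangles), with exact 95% intervals. AP-1 reaches 41.6% without and 39.4% with TAF4 against 3.63% in flanks, and the other motifs stay at or below 11.7% in both classes of peaks.

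Further motifs were counted on both strands as exact letters. The RUNX consensus TGTGGTT was next to AP-1, with 11.7% (10.7% to 12.7%) of the regions against 3.77% of flanks and 2.31% of all TSS windows. TEAD sites, read as ACATTCC, were present in 8.38% (7.55% to 9.26%) against 2.99% of flanks and 1.71% of TSS windows. Distal IgG peaks held the TEAD letters more often, in 10.7% (8.95% to 12.6%), while they held RUNX in 3.99%, FOXA in 2.17%, GATA in 1.48% and CEBP in 1.91%. FOXA (TGTTTAC) was found in 6.45% against 2.86% and 1.61%, respectively. The letters AGATAAG of the GATA family had 5.04% against 3.03% and 1.27%. CEBP (TTGCNCAA) had 4.27%, with 2.45% of flanks and 1.26% of TSS windows. ETS (CCGGAAG) was rare in the regions with 1.54%, compared with 9.43% of TSS windows. NF-kB, by its degenerate decamer, was present in 3.403% against 1.68% of flanks.

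The motif of the insulator protein CTCF was found in 23 regions (0.555%, 0.352% to 0.832%), compared with 0.0483% of flanks and 0.204% of TSS windows. CRE (TGACGTCA), which shares its outer letters with AP-1, was present in 0.386%. No match was found for NRF1 or p53 in 4143 windows, which allows a share of up to 0.0890% by the exact interval. TATAAA was present in 9.29% of the regions and thus less often than in their flanks (17.98%), while it was found in 12.8% of distal IgG peaks and 5.72% of TSS windows.

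The motifs that separated SBNO1-only distal peaks from those with TAF4 were few. The KLF/SP element GGGCGG was found in 4.61% without and 7.29% with TAF4, a difference of -2.68 points (95% Newcombe interval -3.83 to -1.57), and in 43.5% of all TSS windows. The flanks of these classes held it in 3.17% and 4.04%, respectively. The ZNF148/ZNF281 element GGGGAGGG had 2.61% and 3.41% (-0.802 points, -1.64 to -0.00654). SOX (ACAATGG) was higher without TAF4, with 3.45% against 2.31% (1.15 points, 0.354 to 1.91), and this interval excluded 0 in windows of 100 and 400 bp as well. However, SOX was close to its flanks in both classes, with 2.80% in flanks without and 2.74% in flanks with TAF4. Distal IgG peaks held it in 2.69%. FOXA had 6.45% against 5.18% (1.26 points, 0.155 to 2.34), but the interval included 0 in windows of 100 bp (0.273 points, -0.546 to 1.06) and of 400 bp (1.35 points, -0.0660 to 2.73). For TEAD the difference was -0.782 points (-2.13 to 0.538) and for RUNX 0.194 points (-1.32 to 1.68), and both intervals included 0. In windows of 400 bp TEAD was lower without TAF4 (-1.76 points, -3.42 to -0.123). These 20 comparisons were made without adjustment of the intervals.

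The KLF/SP and ZNF148/ZNF281 letters consist mostly of G, and GC content moved with these differences. The median GC content of the central 200 bp was 45.0% without and 48.0% with TAF4. Windows over 50% GC made up 24.9% (23.6% to 26.3%) and 38.5% (36.8% to 40.3%), respectively, compared with 21.3% of the flanks of SBNO1-only distal peaks. The part of GC content in the motif differences was not tested. The ratio of observed to expected CpG dinucleotides was 0.234 in the regions, 0.231 in their flanks and 0.268 with TAF4, compared with 0.674 in SBNO1 peaks without TAF4 near a TSS.

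Regions with AP-1 and regions without it also differed in their other motifs. TEAD was present in 6.44% of regions with AP-1 and 9.75% of those without (-3.31 points, -4.95 to -1.63). For RUNX these values were 9.17% and 13.4% (-4.26 points, -6.16 to -2.31). ETS had 0.755% and 2.11% (-1.35 points, -2.08 to -0.622), and KLF/SP 3.48% and 5.41% (-1.93 points, -3.17 to -0.649). FOXA was found in 6.56% and 6.36% of these regions, with a difference of 0.195 points (-1.30 to 1.75).

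SBNO1-only distal peaks were narrower and scored lower than those with TAF4, which is given as a description because the width enters the overlap rule. The median width was 341 bp (quartiles 269 and 442 bp) compared with 438 bp (337 and 563 bp) for distal SBNO1 peaks with TAF4. The regions covered 1.52 Mb in all. The authors' score, a whole number up to 1000, had a median of 811 against 917. The cap was reached by 26.3% (24.97% to 27.7%) and 39.2% (37.4% to 41.0%), respectively. Other peaks that had only 1 of the proteins were similar or lower, with medians of 353 bp and a score of 729 for SBNO1 peaks without TAF4 near a TSS, and of 308 bp and 790 for distal TAF4 peaks without SBNO1. At the edge of the 10 kb rule, the closest regions inside were near LPP (10026 bp from the TSS, score 1000), ETV6 (10028 bp, score 800) and ITGB8 (10031 bp, score 987). The closest peaks outside were near MAPKAPK3 (9967 bp, score 817), ITLN1 (9917 bp, score 723) and MRPL33 (9867 bp, score 940).

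Width and score were both linked to AP-1. The share of windows with the consensus was 52.0% among regions of up to 250 bp and 26.7% among those over 600 bp. It was 24.6% at scores under 600 and 52.7% (49.6% to 55.7%) at the cap. However, narrow regions reached the cap in 76.5% and regions over 600 bp in 1.96% of cases, so that width and score cannot be told apart here. When the whole peak was searched instead of the central 200 bp, the share was 52.6% up to 250 bp and 55.3% over 600 bp, while matches per kb of peak were 2.98 and 1.08, respectively.

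**Figure D3:**
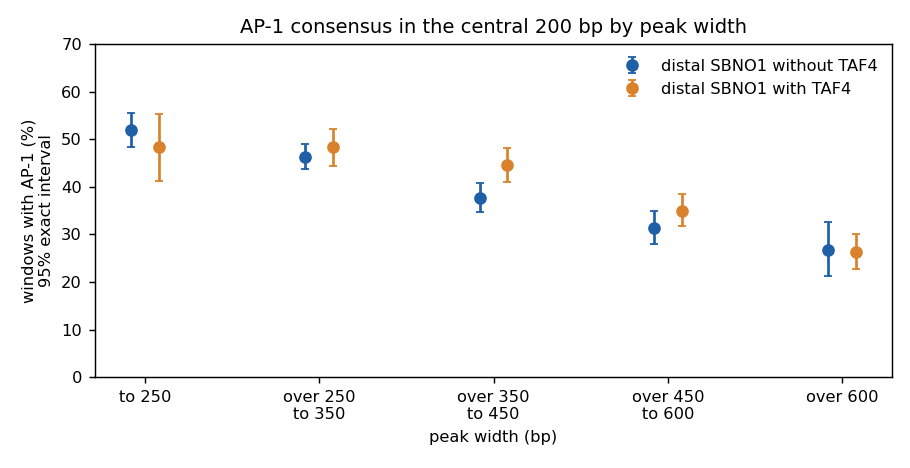
Share of central 200 bp windows with the AP-1 consensus in percent (vertical axis, from 0) by class of peak width in bp (horizontal axis) for distal SBNO1 peaks without TAF4 (blue) and with TAF4 (orange), with exact 95% intervals. Both classes fall with width, from 52.0% to 26.7% without and from 48.3% to 26.3% with TAF4.

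At like width, the classes were compared again, a step added after the data had been seen. Peaks over 350 and up to 450 bp held AP-1 in 37.7% without and 44.6% with TAF4, a difference of -6.87 points (-11.5 to -2.20). Scores were not matched, as 9.79% of these peaks without and 38.9% with TAF4 were at the cap. In the other 4 width classes the differences ranged from -3.54 to 3.69 points and all intervals included 0. Among peaks at the score cap, in contrast, the share was higher without TAF4, with 52.7% against 46.3% (6.37 points, 2.25 to 10.5). These capped peaks were not matched for width. The sign of the AP-1 difference hence varied with the class of peaks and the window.

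Most regions had no called TAF4 peak close by. The selection rule favours this, and gaps of other distal peaks are not given here. The nearest TAF4 peak was within 1 kb of 4.15% of the regions, within 10 kb of 20.3% and within 100 kb of 67.7%, with a median gap of 44.8 kb. An IgG peak lay within 10 kb of 3.48%. At the other extreme, 34 regions (0.821%) were within 200 bp of a TAF4 peak, the closest being next to ATP6V0D2, GRAP and RIPK2 with gaps of 1, 12 and 19 bp. The AP-1 share was 34.9% (27.8% to 42.5%) for gaps up to 1 kb, 37.3% from 1 to 10 kb, 41.5% from 10 to 100 kb and 44.7% (42.0% to 47.4%) beyond.

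Next, the position relative to genes was examined. Centres of 41.2% (39.7% to 42.7%) of the regions were in introns of protein-coding genes, 17.0% were in lncRNA gene bodies and 39.9% outside these genes. Untranslated exons held 49 regions (1.18%) and coding exons 30 (0.724%). The regions minus distal SBNO1 peaks with TAF4 gave 1.12 points for introns (-1.19 to 3.42) and 0.372 points for lncRNA bodies (-1.40 to 2.12). Outside genes the difference was -1.63 points (-3.94 to 0.680), and all these intervals included 0. The AP-1 share was 43.0% in introns and 40.2% outside genes, and the intervals overlapped.

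The median distance to the nearest protein-coding TSS was 52.0 kb for SBNO1-only distal peaks and 44.4 kb with TAF4. A distance of 10 to 25 kb was seen in 26.5% of the regions and one over 250 kb in 12.3% (11.3% to 13.3%), compared with 8.76% (7.77% to 9.83%) of peaks with TAF4. AP-1 was found at all distances, between 39.1% at 100 to 250 kb and 44.4% at 50 to 100 kb. Start sites of other RNA classes were close in few cases: 174 regions (4.20%) lay within 1 kb of a start of another transcript type, among them 101 at other transcripts of protein-coding genes and 34 at pseudogenes.

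The regions were spread unevenly over the chromosomes. Per Mb of known sequence there were 1.41 regions in the genome, with 2.58 on chromosome 20, 2.31 on chromosome 5 and 2.06 on chromosome 17. The lowest densities of the autosomes were 0.355 on chromosome 16 and 0.475 on chromosome 18, and chromosome X had 0.362. Distal SBNO1 peaks with TAF4 had 2.17, 1.80 and 2.01 per Mb on chromosomes 20, 5 and 17, all above their genome value of 1.02. IgG peaks also exceeded their genome value of 0.544 per Mb on these chromosomes, with 1.16, 0.739 and 1.37. Whether the density of background reads took part in this was not tested. Without these 3 chromosomes the AP-1 share was 42.6%.

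**Figure D4:**
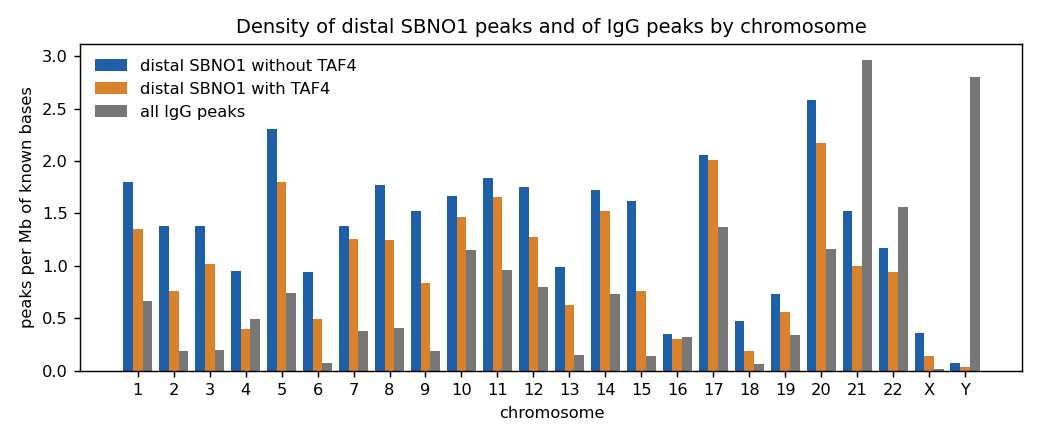
Peaks per Mb of known bases (vertical axis, from 0) on each chromosome (horizontal axis) for distal SBNO1 peaks without TAF4 (blue), with TAF4 (orange) and all IgG peaks (grey). Chromosome 20 has the highest density of SBNO1-only distal peaks with 2.58 per Mb, and IgG is highest on chromosome 21 with 2.97 per Mb.

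SBNO1-only distal peaks and the comparison class with TAF4 were joined into clusters when their edges lay within 15 kb. Distal SBNO1 peaks that overlapped IgG were left out of this step. SBNO1-only distal peaks stood alone in 65.0% of cases, and 35.0% (33.5% to 36.4%) shared a cluster with another distal SBNO1 peak. A cluster held at least 3 of the regions in 61 cases, and 39 of these clusters contained no peak with TAF4. No cluster held more than 4. There were 11 clusters with 4 regions. Among these, the most peaks with TAF4 were found near GRB10 (chr7:50812947-50851771, 3 peaks with TAF4), UACA (chr15:70475075-70508333, 2 peaks) and MTAP (chr9:21670266-21689060, 2 peaks). The AP-1 share was 43.2% (41.3% to 45.1%) in lone regions and 38.6% (36.1% to 41.2%) in clusters. Clustering was 14.7% among regions at the score cap when all peaks below the cap were dropped before joining, which leaves fewer peaks to join. Whether capped regions also cluster less with all distal peaks was not tested.

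The 10 highest-ranked regions all had the score 1000 and widths from 530 to 739 bp. Rank 1 (chr5:132100555-132101293) was between genes, 26.8 kb from the TSS of CSF2, which encodes the cytokine GM-CSF, and a TAF4 peak was 2.14 kb away. An IgG peak was located at 5.59 kb. Rank 2 (chr10:30387322-30388000) was also intergenic, 38.04 kb from MTPAP, the mitochondrial poly(A) polymerase, and 45.8 kb from a TAF4 peak. Rank 3 (chr22:36331388-36332049) was in an intron of MYH9, a non-muscle myosin heavy chain, at 1.66 kb from a TAF4 peak. The remaining regions were found in introns of MGLL and RIPOR3, in lncRNA genes near ZNF366 and COBL, and between genes near MRPL15, ATPSCKMT and EED, a subunit of the Polycomb repressive complex. Of these 10 regions, 3 held the AP-1 consensus, those near CSF2, MYH9 and EED shown above, and the match near EED was accompanied by a TEAD match.

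Each region was then assigned to the protein-coding gene with the nearest TSS. This names a neighbour, since contacts or expression were not measured in these files. At least 1 region was assigned to 2533 of 19663 protein-coding genes (12.9%), of which 1670 had 1 region, 363 had 3 or more and 96 had 5 or more. Promoters of these 2533 genes carried an SBNO1 peak within 1 kb in 31.5% (29.7% to 33.4%) and a TAF4 peak in 37.7% (35.8% to 39.6%), compared with 25.7% and 31.9% of all protein-coding genes. For the 363 genes with 3 or more regions, these shares were 41.9% (36.7% to 47.1%) and 49.0% (43.8% to 54.3%). Thus, many neighbours had a TAF4 peak at the promoter although the distal region overlapped no called TAF4 peak.

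SOX9, a transcription factor of bile duct identity, was nearest to the most regions, with 14 (chr17:72121020-72126416). They lay 30.5 to 931 kb from its TSS, 11 of them upstream and 3 downstream. Their scores ranged from 512 to 1000 with a median of 864, and 6 were at the cap. AP-1 was present in 6 of the 14. Another 11 distal SBNO1 peaks nearest to SOX9 overlapped TAF4 and no IgG peak, and its promoter had peaks of both proteins. The closest region (chr17:72151518-72151954, score 1000) was in the body of an lncRNA gene and held AP-1. The farthest (chr17:71188807-71189636, score 512) held none.

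TP63 had 10 regions, the most of any gene that had no distal SBNO1 peak with TAF4 in the comparison class. Peaks that overlapped both TAF4 and IgG were not counted. Its promoter had no SBNO1 or TAF4 peak. This gene encodes the p53-related factor of basal and squamous epithelium (chr3:189631389-189897276). Of its regions, 3 were in introns of the gene at 10.2 to 78.7 kb from the nearest TSS, 2 were upstream of the gene and 5 followed its end. Scores ranged from 434 to 1000, and 4 regions held AP-1. Among all 96 genes with 5 or more regions, 18 had no distal peak with TAF4 in the comparison class. Most of these 18, like TP63, also had no SBNO1 or TAF4 peak at the promoter. Of all 96 genes, 35 had neither promoter peak. The 18 included TGFBR2, a TGF-beta receptor, with 5 regions, 4 with AP-1 and 3 at the cap. GLIS3 and PALLD, also among them, had 6 regions each. Unlike most of the 18, these 3 genes had peaks of both proteins at the promoter.

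JAG1, a ligand of Notch receptors (chr20:10637684-10673999), was nearest to 11 regions at 34.9 to 593 kb, and 2 of these were in introns of the neighbouring gene SLX4IP. Upstream of JAG1, 7 regions were found from 444 to 593 kb. Scores were between 364 and 1000 and 2 regions held AP-1. FOXA2, a pioneer factor of endoderm and liver (chr20:22580998-22585455), had 9 regions at 33.8 to 238 kb, of which 5 were upstream and 4 downstream. Of the 9 regions, 1 reached the cap and 2 held AP-1, and 3 further distal peaks overlapped TAF4. Both promoters had SBNO1 and TAF4 peaks.

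ARHGEF28, a guanine nucleotide exchange factor, had 13 regions at 15.2 to 372 kb, all downstream of the TSS, and MYC, a transcription factor of cell growth, had 12 at 71.9 to 928 kb, 11 of them downstream. AP-1 was present in 3 and 7 of these regions, respectively. HS3ST1, a heparan sulfate sulfotransferase, had 11 regions, all upstream at 66.8 to 240 kb, and 2 distal peaks with TAF4. EFNA5 (10 regions), an ephrin ligand, RAD51B (9), a DNA repair protein, and INHBA (9), the beta A subunit of activin, completed the list. INHBA was the only one of these 10 genes with an IgG peak at its promoter. ANKRD55 also had 9 regions and was placed behind these by the rank of its best region.

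**Figure D5:**
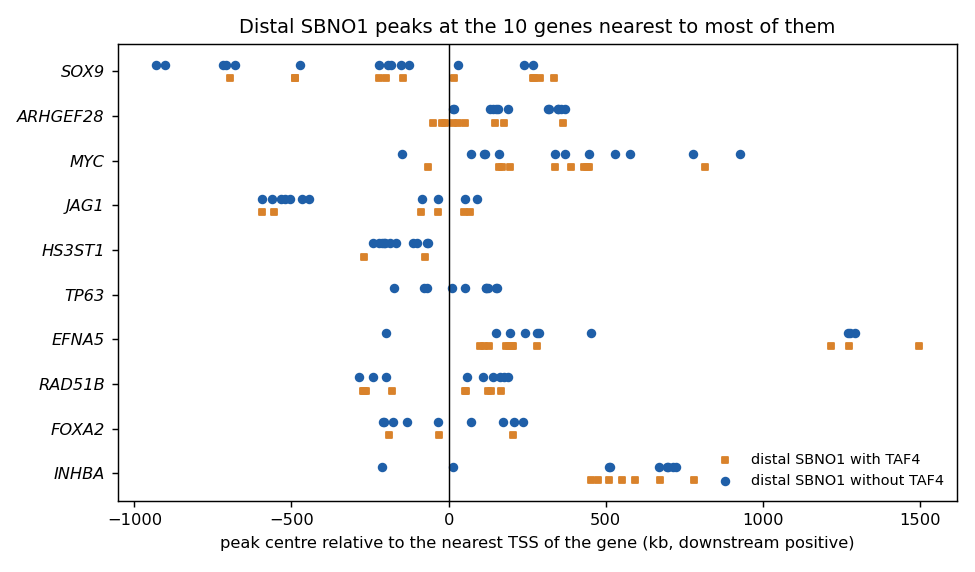
Position of each distal SBNO1 peak without TAF4 (blue circles) and with TAF4 (orange squares) relative to the nearest TSS of the gene in kb (horizontal axis, downstream positive) for the 10 genes (vertical axis) nearest to the most SBNO1-only distal peaks. The 14 regions of SOX9 extend to 931 kb upstream, those of HS3ST1 are all upstream, and TP63 has no square. Distal SBNO1 peaks that overlapped IgG are not shown.

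Pathway lists were read against the 12.9% of all genes that were nearest to at least 1 region. Genes of the YAP and TEAD pathway were neighbours in 20 of 38 cases (52.6%, 35.8% to 69.0%), led by ASAP1, CRIM1 and IGFBP3 with 6 regions each and AMOTL1 with 5. Receptor tyrosine kinase signalling had 19 of 38 genes (50%), with 6 regions each at the feedback inhibitors ERRFI1 and SPRY2, 5 at the EGFR ligand AREG and 4 at the receptor EPHB2. The TGF-beta pathway had 18 of 36 genes (50%), with INHBA followed by the ligand BMP4, TGFBR2 and the activin antagonist FST at 5 regions each. In the list of laminins, integrins and adhesion there were 14 of 37 genes (37.8%), with 3 regions each at ITGA2, ITGB3, LAMC1 and ITGB6.

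Biliary identity genes had a region in 12 of 33 cases (36.4%), with 4 regions at KLF5 and 3 at GRHL2 after SOX9 and FOXA2. Being a neighbour was not confined to genes of the labelled cell type, since 3 of 4 endothelial markers (PECAM1, VWF and CDH5), 2 of 4 blood markers (PTPRC and CD3E) and 2 of 4 fibroblast markers (COL1A1 and LUM) were also nearest to a region, compared with 0 of 6 hepatocyte markers. The Notch pathway had 12 of 36 genes (33.3%), with 5 regions each at the target HES1 and the coactivator MAML2 and 2 at MAML3 beside JAG1. Interleukin and LIF signalling had 14 of 45 genes (31.1%), among them STAT3 and IL1RAP with 3 regions each and LIFR and IL1B with 2 each. For the AP-1 family itself, 7 of 24 genes (29.2%, 12.6% to 51.1%) were neighbours, with 2 regions each at BACH2 and FOSL2 and 1 each at ATF3 and BACH1. The families of cytosolic and mitochondrial ribosomal proteins, taken as contrast, had 10 of 86 (11.6%) and 10 of 78 genes (12.8%). The median number of regions per gene was 1 for the YAP and TEAD pathway, 0.5 for receptor tyrosine kinase signalling and for the TGF-beta pathway, and 0 for the other lists and for all genes.

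The space around a gene differed between lists and was therefore considered. Counted per Mb of sequence nearer to a list's genes than to others, all genes had 1.70 regions per Mb. The Notch list had 9.88, biliary identity 6.38, interleukin and LIF signalling 5.995, YAP and TEAD 5.90, TGF-beta 4.70, laminins and integrins 4.66, receptor tyrosine kinases 4.09, the ribosomal lists 2.47 and 2.57 and the AP-1 family 1.99. This was not particular to regions without TAF4. The 8 pathway lists together, 286 genes, were nearest to 272 SBNO1-only distal peaks (6.57%) and to 8.06% of distal SBNO1 peaks with TAF4, a difference of -1.49 points (-2.74 to -0.272).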

How the data were processed

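Peaks had been called from HuCCT1 libraries of SBNO1, TAF4 and IgG immunoprecipitates, 1 library per antibody, made from pooled replicates after enzymatic preparation of chromatin. The submitters' processing notes name Bowtie2 2.5.4, Genrich 0.6.1 and the build GRCh38, whereas the methods of the study name ktrim, bowtie2 and normR. Which caller made the lists, its threshold and the use of IgG as control were not given in the sources used here. The study describes SBNO1 binding as mainly close to a TSS. In the deposited list, 8081 of 16147 SBNO1 peaks (50.05%) were distal by the 10 kb and 1 kb limits used here. The study instead places most SBNO1 peaks within 1 kb of a TSS. Within that distance, 5053 protein-coding genes had an SBNO1 peak and 6275 had a TAF4 peak in the deposited lists. The study counts far fewer bound promoters for both proteins, so its description does not rest on these lists as used here. How its peak set relates to them is not known. The deposited value per peak is a score assigned by the authors, capped at 1000, and was used to rank peaks within a list. Peak lists hold no read numbers, so the depth is unknown.

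Start sites and features were taken from GENCODE 44 and sequence from GRCh38. Distances were measured from the nearer peak edge, and an overlap of 1 bp counted as shared. Features were read at the peak centre. As no summit was given, motifs were counted as exact letters on both strands in 200 bp around the centre, and flanks were shifted by 1000 bp. A match is a description and not a binding site. Motifs may overlap each other. Words of 7 bases were listed when present in at least 40 regions, or 24 without AP-1. Clusters joined edges within 15 kb. Shares have 95% Clopper-Pearson and differences have Newcombe intervals. With 1 library per antibody no p-values were computed.

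The regions, motifs and gene lists were chosen with earlier results of these data known, and the regions were chosen by the same peak lists. The text names the 10 highest-ranked regions (score, then width, then position), those nearest to the limits and to TAF4, the 3 clusters with the most regions (ties by the number of peaks with TAF4), the 10 genes nearest to the most regions and up to 4 genes per list. TGFBR2, GLIS3, PALLD and ANKRD55 outside these were named after their values were seen. Some marker genes and motifs are not reported here. Alternatives were other distances, overlaps, scores, windows and stitching distances, and removal of the 3 densest chromosomes. Functions for overlap, distance, motifs and intervals were tested on simulated data. Python 3.11.15, numpy 2.4.6, pandas 2.3.3, scipy 1.17.1, pysam 0.24.0 and samtools 1.23.1 were used.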

Additional observations from a re-analysis of the deposited data

How the results depend on the processing

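There were 58 alternatives to the main values. Of these, 30 moved a share within counting error or a number of peaks by less than 1.5 times. The other 28 moved them further. A reversal could not be counted, because only the AP-1 difference has a sign and its main interval included 0. Its sign did change in windows of 400 bp and over the whole peak. The share of SBNO1 peaks that were distal without TAF4 was 29.0% with a limit of 5 kb, 20.9% with 20 kb and 13.1% (2117 peaks) with 50 kb, 27.1% with no lncRNA limit and 21.8% with one of 10 kb, and 24.6% when no TAF4 or IgG peak was allowed within 1 kb. It was 21.5% (1743 peaks) at or above the median score of the list and 19.5% (1090 peaks) at the cap. At the 50 kb limit, 29.6% of regions were intronic and 19.0% were over 50% GC. At the score cap, AP-1 was found in 52.7% (6.37 points above peaks with TAF4), 29.3% were over 50% GC, 14.7% were clustered and 5.78% were nearest to a listed gene. AP-1 was found in 25.5% of windows of 100 bp, 51.4% of 400 bp and 52.2% of whole peaks, and its difference to peaks with TAF4 was -0.593 points in 400 bp and -3.66 points in whole peaks. Clustering was 32.7% without regions within 1 kb of TAF4 or IgG, 33.0% without the 3 densest chromosomes, and 20.4% and 45.6% with stitching at 5 and 30 kb. Listed genes took 5.43% when every gene within 100 kb was counted.

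Of 42 alternatives for named genes and motifs, 11 moved the value: the counts at the cap fell for all 10 named genes, to 6 for SOX9 and 1 for FOXA2 and for INHBA, and the KLF/SP difference was -4.80 points in windows of 400 bp, a window chosen after seeing the data. The intervals of the FOXA and TEAD differences changed between including and excluding 0 with the window. No paired analysis was possible because there was a single library for SBNO1, TAF4 and IgG each. The spread between cultures is unknown, and no read depth was available, so a missing TAF4 peak is not shown to be missing TAF4. The cause of these shifts was not tested, except that larger distance limits, higher scores and shorter windows leave fewer peaks or bases by construction.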

Other observations

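Introns of 1222 protein-coding genes held at least 1 SBNO1-only distal peak, 334 held 2 or more and 27 held 5 or more. RAD51B had the most with 9 regions in a gene body of 910 kb, followed by AOPEP with 8 in 425 kb and THSD4 with 8 in 686 kb. PTPN14, a phosphatase that acts on the YAP pathway, had 7 in 204 kb. These counts were not scaled by gene length.

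The start of a microRNA lay within 1 kb of 7 regions (0.169%). A region covered the start of MIR155 (chr21:25573881-25574259, score 537) and another that of MIRLET7A2 (chr11:122146491-122146787, score 893), both inside lncRNA gene bodies, and a further region covered that of MIR6860 in an intron.

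Regions assigned to CNTNAP3C and ALG10 were far from the gene, at 1337 to 1787 kb and 227 to 1287 kb. None of the 6 and 5 regions, respectively, held the AP-1 consensus or reached the score cap. The promoter of ALG10 also had an IgG peak. No filter for repeated or poorly mappable sequence was applied to the peaks here. The short cluster near NRP2, a receptor for semaphorins and VEGF, held 4 regions within 8.98 kb and no peak with TAF4. Another cluster near RIPOR3 had 4 regions within 19.9 kb with a median score of 1000, and none with TAF4. These genes were named after their values were seen.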
